A study of Homo sapiens with 15 samples.

Results

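Integrin chains and the basement membrane proteins they bind were followed across 5 groups of A375 cells, an established human melanoma line with mutant BRAF. The genes were taken by symbol, and the choice was made with earlier results of these data known. They were the alpha chains ITGA1 to ITGA11, ITGAV and ITGAE, the beta chains ITGB1 to ITGB8 and the laminin chains. The nidogens NID1 and NID2, perlecan (HSPG2), agrin (AGRN) and dystroglycan (DAG1) completed the set. The deposited tables list 37 such genes among 17360 symbols, made up of 12 alpha chains, 8 beta chains, 16 basement membrane ligands and DAG1, a laminin receptor that is no integrin. The alpha chain ITGA8 was not analysed here, and the leukocyte chains ITGAL, ITGAM, ITGAX and ITGAD and the platelet chain ITGA2B lie outside the choice. The groups were cells with overexpressed VAV1 treated with saracatinib, cells with overexpressed VAV1 given vehicle, cells with an empty vector given vehicle, cells with overexpressed RAC1 P29S left untreated, and cells with an empty vector left untreated. Each group had 3 libraries, and all cells grew in DMEM with serum. VAV1 is a guanine nucleotide exchange factor, normally of blood cells, that activates small GTPases such as RAC1. RAC1 P29S is an activated form of RAC1 that recurs in melanoma, and saracatinib inhibits SRC-family kinases. The labels state neither a dose nor a time for saracatinib, do not say whether the lines were clones or pools, and include no empty-vector cells with saracatinib.

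Integrins are pairs of 1 alpha and 1 beta chain that span the cell membrane and bind the matrix outside and the actin cytoskeleton, through adaptor proteins, inside. The alpha chain largely decides the ligand: ITGA1, ITGA2, ITGA10 and ITGA11 pair with ITGB1 to bind collagens, ITGA3, ITGA6 and ITGA7 make laminin receptors, ITGA4 and ITGA9 bind fibronectin splice forms, tenascin or VCAM1, and ITGA5 and ITGAV read the RGD motif of fibronectin and vitronectin. Laminins are trimers of an alpha, a beta and a gamma chain, secreted into basement membranes, where nidogens and perlecan link them to type IV collagen. In melanoma the pair of ITGAV and ITGB3 is known as a marker of the switch to vertical growth, and SRC-family kinases act just downstream of clustered integrins.

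The values are log2 of a normalized count plus 1, as deposited, and the 2 experiments (9 libraries with vehicle or saracatinib, 6 untreated libraries) were scaled separately. In the first, 35 of the 37 genes were listed and all 35 passed the filter of at least 10 normalized counts in at least 3 libraries. In the second, 37 were listed and 34 passed, with ITGB6, LAMB4 and LAMC3 below it. Normalized counts summed to between 14443918 and 16262759 per library. Taken in each experiment separately, libraries correlated at 0.981 to 0.987 within groups and 0.942 to 0.967 between groups. VAV1 stood at 14.12 ± 0.03 with saracatinib, 13.91 ± 0.04 with VAV1 and vehicle and 2.22 ± 0.30 in empty-vector cells (SD, n = 3 each). For the 3 samples titled RAC1P29S, the genotype entry in the labels reads empty vector. RAC1 averaged 14.93 ± 0.03 in them and 11.88 ± 0.02 in untreated empty-vector cells (SD, n = 3 each), so the titles were followed. Error values after ± are SD for levels and SE for log2 differences, and a gene was called when its limma adjusted p, over all genes tested, was under 0.05. The study's design text speaks of biological triplicates and does not mention separate transductions, and the p-values reflect the variation among the cultures that were sequenced.

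The lineage label was checked against marker genes. SOX10, a melanocyte-lineage factor, averaged 2764 normalized counts with saracatinib, 1787 with VAV1 and vehicle and 7522 in empty-vector cells with vehicle, and 4403 with RAC1 P29S against 9414 in untreated empty-vector cells. MITF, another factor of that lineage, lay the other way, at 512 with saracatinib, 1090 with VAV1 and vehicle and 371 in empty-vector cells with vehicle, and at 769 with RAC1 P29S against 326 in untreated empty-vector cells. Pigment genes were low throughout, with MLANA at 3.23 to 12.9. Of the 12 melanocyte-lineage markers, 7 to 9 averaged at least 10 normalized counts in a group, and their summed level ranged over libraries from 11233 to 12854 with saracatinib, from 7726 to 8386 with VAV1 and vehicle and from 21523 to 23135 in empty-vector cells with vehicle, mostly from CSPG4 and SOX10. It was 11048 to 11688 with RAC1 P29S, against 21672 to 23196 in untreated empty-vector cells. The epithelial list of 7 summed to 8232 to 8643 with saracatinib, 13181 to 14144 with VAV1 and vehicle and 6391 to 7251 in empty-vector cells with vehicle, nearly all from KRT8 and KRT18. It summed to 6495 to 7229 with RAC1 P29S, against 3433 to 3885 in untreated empty-vector cells, while EPCAM and KRT5 were not analysed here and CDH1 averaged at most 3.33. KRT14 and CLDN4 went the other way, at 59.8 and 191 with VAV1 and vehicle and 144 and 406 in empty-vector cells with vehicle. With RAC1 P29S they averaged 150 and 325, against 208 and 328 in untreated empty-vector cells. The haematopoietic list of 12 summed to 2563 to 2789 with saracatinib, 1240 to 1287 with VAV1 and vehicle and 536 to 567 in empty-vector cells with vehicle, mostly from CD68. It summed to 1067 to 1157 with RAC1 P29S, against 332 to 410 in untreated empty-vector cells, and PTPRC, the pan-leukocyte marker, averaged 4.40 to 9.05 over the groups. Sums over libraries were 140 to 443 for the fibroblast list, 42.3 to 116 for the endothelial list and at most 8.85 for the platelet list. These lists move with the groups compared for the integrins and laminins, and their part in those results was not tested. In bulk RNA, fewer cells of a kind and less RNA per cell cannot be told apart.

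The repertoire of these cells is read best per length of transcript, since longer transcripts give more counts. Per kilobase of the longest coding transcript, empty-vector cells with vehicle held the most message for LAMB1 (1939 normalized counts per kilobase), ITGA3 (1846), ITGB1 (1776), ITGB3 (1654), LAMC1 (1237) and ITGA6 (1131). The leading receptor chains were thus those of the laminin receptors alpha3-beta1 and alpha6-beta1 and the vitronectin receptor beta chain, beside the beta and gamma chains shared by many laminins. With VAV1 and vehicle, ITGA3 (1891), ITGB1 (1772) and LAMB1 (1445) led and ITGB3 stood at 254, below ITGA5 (671), ITGA6 (492) and LAMB2 (270). With saracatinib, ITGA3 (2671) and ITGB1 (2030) led and ITGB3 reached 443.

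With VAV1, the integrin alpha chains moved in 1 direction: 9 of 12 fell and none rose. Over all 35 genes tested, 20 fell and 6 rose with VAV1 against the empty vector, where 43.7% of all 14410 genes were called (23.6% higher and 20.1% lower). The median log2 difference of the 35 was -0.36, beside 0.02 over all genes. Of the 7 beta chains, 3 fell and 1 rose, and of the 15 ligands 7 fell and 5 rose. Changes of more than 2-fold were called for 12 of the 35, 8 of them lower, against 10.2% of all genes.

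**Figure D1:**
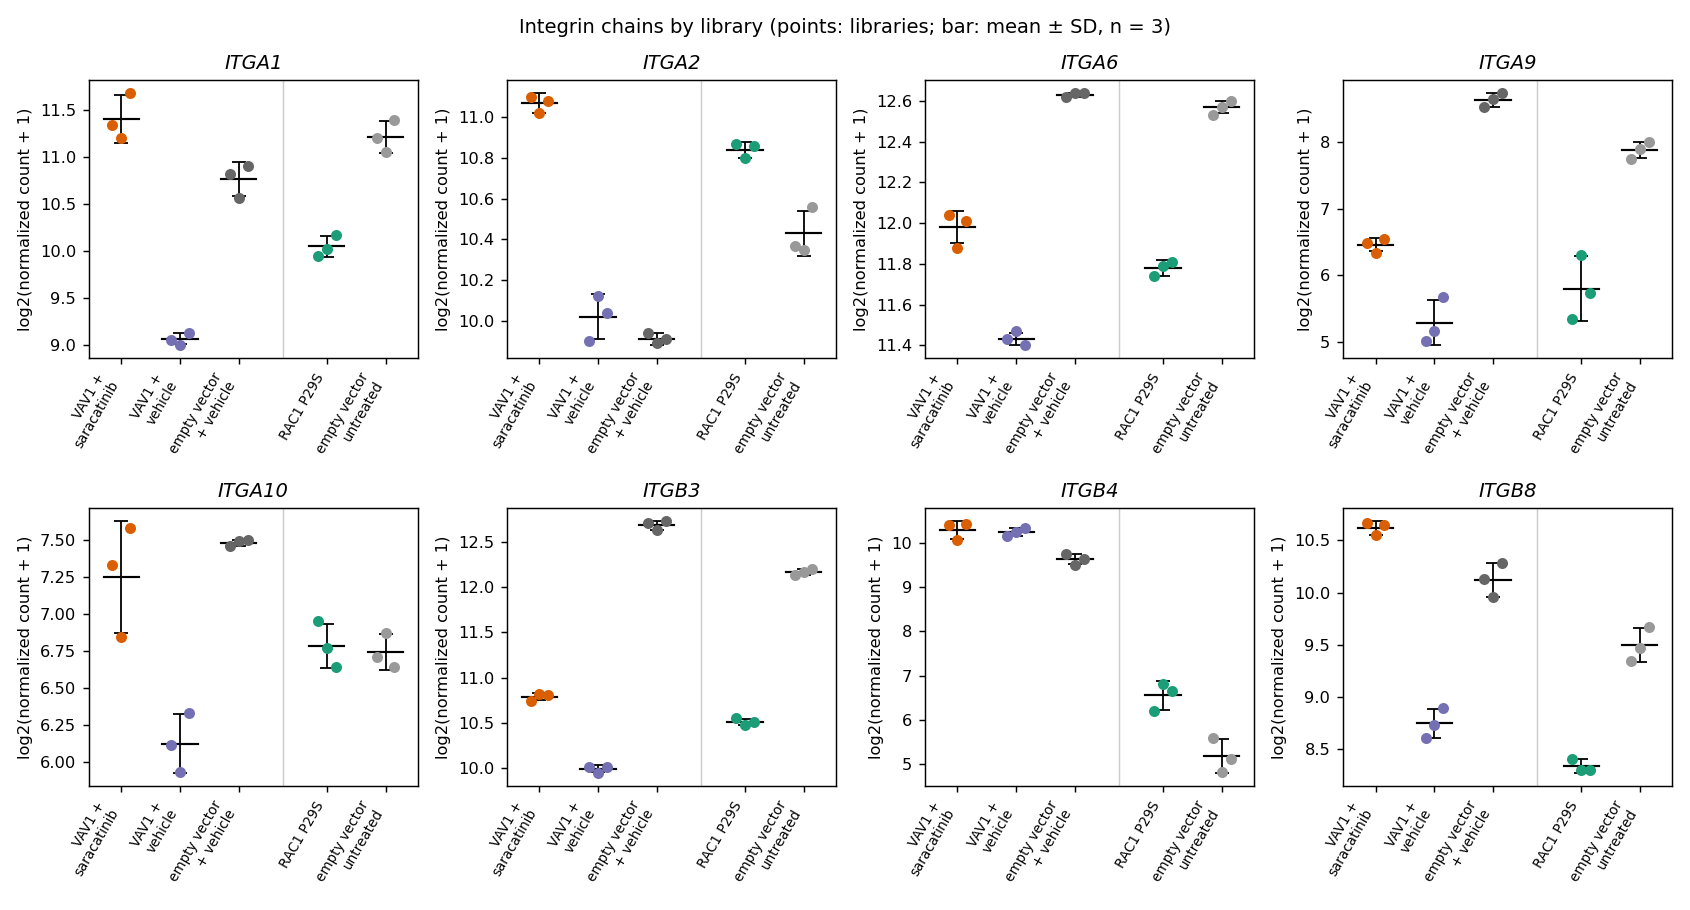
Log2(normalized count + 1) of 8 integrin chains in every library, with VAV1 + saracatinib, VAV1 + vehicle and empty vector + vehicle left of the line and RAC1 P29S and untreated empty vector right of it; points are libraries and bars the mean ± SD of 3. ITGB3 lies at 9.94 to 10.01 with VAV1 and vehicle and at 12.63 to 12.73 in empty-vector cells with vehicle, and the vertical scale differs between panels.

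ITGB3, the beta chain of the vitronectin receptor (chr17:47253846-47311816, GRCh38), carried the smallest adjusted p among the integrins. Its log2 values were 10.74, 10.82 and 10.81 with saracatinib, 10.01, 9.94 and 10.01 with VAV1 and vehicle, and 12.71, 12.63 and 12.73 in empty-vector cells with vehicle. The 3 groups did not overlap: VAV1 cells lay lowest, saracatinib cells between, and empty-vector cells far above both. ITGB3 was 6.51-fold lower with VAV1 (log2 difference -2.70 ± 0.05, adjusted p = 1.56e-13), rose by 0.80 ± 0.05 with saracatinib (adjusted p = 4.1e-08) and still stood at -1.90 ± 0.05 with saracatinib against the empty vector. In the untreated experiment it was 10.55, 10.48 and 10.51 with RAC1 P29S, against 12.14, 12.17 and 12.20 with the empty vector. RAC1 P29S cells were lower in every library, by 3.15-fold (log2 difference -1.66 ± 0.05, adjusted p = 6.16e-09). An overlapping same-strand gene in GENCODE 29 shares 51.6% of the exonic bases of ITGB3 and was not analysed here, so how its reads were assigned is uncertain.

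The alpha partner of ITGB3 changed by smaller amounts. ITGAV, which also pairs with ITGB1, ITGB5 and ITGB8, averaged 9.91 ± 0.05 with saracatinib, 9.86 ± 0.05 with VAV1 and vehicle and 10.31 ± 0.05 in empty-vector cells (SD, n = 3 each). It fell by 0.45 ± 0.06 with VAV1 (adjusted p = 3.67e-05), and with saracatinib its log2 difference of 0.05 ± 0.06 did not pass (adjusted p = 0.544). ITGB5, another vitronectin-binding partner of ITGAV, averaged 11.54 ± 0.07 with saracatinib, 11.54 ± 0.06 with VAV1 and vehicle and 12.08 ± 0.08 in empty-vector cells (SD, n = 3 each). It fell by 0.55 ± 0.05 with VAV1, and its log2 difference with saracatinib was 0.00 ± 0.05 (adjusted p = 0.999).

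ITGB8 pairs with ITGAV to bind and release latent TGF-beta. Its log2 values were 10.67, 10.55 and 10.65 with saracatinib, 8.61, 8.73 and 8.90 with VAV1 and vehicle, and 10.13, 9.96 and 10.28 in empty-vector cells with vehicle. Here the order differs from ITGB3: VAV1 cells were lowest, and saracatinib cells lay above the empty-vector cells with no overlap. The difference was -1.37 ± 0.09 with VAV1 (adjusted p = 4.67e-08), 1.87 ± 0.09 with saracatinib (adjusted p = 4.56e-09) and 0.50 ± 0.09 with saracatinib against the empty vector (adjusted p = 0.000627). With RAC1 P29S it was 8.41, 8.30 and 8.30, against 9.35, 9.47 and 9.67 in untreated empty-vector cells. All RAC1 P29S libraries were lower, by 1.16 ± 0.10 on the log2 scale (adjusted p = 9.54e-06).

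Among the collagen-binding alpha chains, ITGA1 (chr5:52787896-52959210) showed the widest swing. Its log2 values were 11.34, 11.20 and 11.68 with saracatinib, 9.06, 9.0 and 9.13 with VAV1 and vehicle, and 10.82, 10.56 and 10.90 in empty-vector cells. The groups were separate, with saracatinib highest and VAV1 lowest. ITGA1 was 3.24-fold lower with VAV1 (log2 difference -1.69 ± 0.12, adjusted p = 2.09e-07) and 5.05-fold higher with saracatinib than with vehicle (2.34 ± 0.12, adjusted p = 2.23e-08). RAC1 P29S cells held 9.95, 10.02 and 10.17, against 11.20, 11.05 and 11.39 with the empty vector. They did not overlap, and ITGA1 was 2.25-fold lower (log2 difference -1.17 ± 0.09, adjusted p = 4.66e-06). PELO, a gene on the same strand that covers 2.56% of the exonic bases of ITGA1, differed by -0.16 ± 0.07 with VAV1 (adjusted p = 0.0805) and rose by 0.39 ± 0.07 with saracatinib. PELO also differed by -0.36 ± 0.07 with RAC1 P29S (adjusted p = 0.00432).

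ITGA2, the alpha chain of another main collagen receptor, had its groups in another order. Its log2 values were 11.10, 11.02 and 11.08 with saracatinib, 9.90, 10.12 and 10.04 with VAV1 and vehicle, and 9.94, 9.89 and 9.91 in empty-vector cells. VAV1 and empty-vector libraries overlapped, and saracatinib libraries stood above both. The VAV1 difference of 0.11 ± 0.06 did not pass (adjusted p = 0.195), though it did without VAV1 vehicle replicate 1 (0.17, adjusted p = 0.0457). ITGA2 rose by 1.05 ± 0.06 with saracatinib (adjusted p = 3.96e-08). It was 10.87, 10.80 and 10.86 with RAC1 P29S, against 10.37, 10.35 and 10.56 with the empty vector, higher in every library by 0.41 ± 0.07 (adjusted p = 0.000957).

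ITGA10, a collagen-binding chain known from cartilage, was a low transcript. It measured 7.33, 6.84 and 7.58 with saracatinib, 6.11, 5.93 and 6.33 with VAV1 and vehicle, and 7.46, 7.49 and 7.5 in empty-vector cells. VAV1 libraries lay below the rest, while saracatinib libraries overlapped those of the empty vector. It fell by 1.36 ± 0.18 with VAV1 (adjusted p = 4.6e-05) and rose by 1.13 ± 0.18 with saracatinib (adjusted p = 0.00029). With RAC1 P29S it was 6.95, 6.77 and 6.64, against 6.71, 6.87 and 6.64 with the empty vector, which overlapped (log2 difference 0.05 ± 0.15, adjusted p = 0.842). ITGA11, the fourth collagen-binding chain, averaged only 71.5 normalized counts with saracatinib, 24.8 with VAV1 and vehicle and 56.6 in empty-vector cells. It fell by 1.23 ± 0.41 with VAV1 (adjusted p = 0.0299), in libraries that overlapped, and rose by 1.66 ± 0.41 with saracatinib (adjusted p = 0.0074).

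ITGA9 binds tenascin-C, VCAM1 and other ligands together with ITGB1, and had the largest fold difference of any alpha chain. Its log2 values were 6.48, 6.34 and 6.55 with saracatinib, 5.02, 5.17 and 5.67 with VAV1 and vehicle, and 8.52, 8.65 and 8.73 in empty-vector cells. The VAV1 and saracatinib libraries lay well below all empty-vector libraries and did not overlap each other. ITGA9 was 10.2-fold lower with VAV1 (log2 difference -3.35 ± 0.17, adjusted p = 4.05e-09) and rose by 1.17 ± 0.17 with saracatinib (adjusted p = 0.000147), which left it 4.52-fold lower than with the empty vector. RAC1 P29S cells held 5.35, 6.31 and 5.74, against 7.75, 7.90 and 8.0 with the empty vector. The groups were separate, by 4.23-fold (log2 difference -2.08 ± 0.22, adjusted p = 5.86e-05).

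ITGB1, the common partner of these alpha chains, was called with neither transgene. It averaged 12.91 ± 0.03 with saracatinib, 12.71 ± 0.04 with VAV1 and vehicle and 12.71 ± 0.06 in empty-vector cells, and 12.86 ± 0.02 with RAC1 P29S against 12.84 ± 0.05 untreated (SD, n = 3 each). Its log2 difference was 0.00 ± 0.04 with VAV1 (adjusted p = 0.963) and 0.01 ± 0.04 with RAC1 P29S (adjusted p = 0.819). With saracatinib ITGB1 rose by 0.20 ± 0.04 (adjusted p = 0.0023), a 1.15-fold change.

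The laminin-binding chains differed from one another. ITGA6, which pairs with ITGB1 or ITGB4, measured 12.04, 11.88 and 12.01 with saracatinib, 11.43, 11.47 and 11.40 with VAV1 and vehicle, and 12.62, 12.64 and 12.64 in empty-vector cells. No groups overlapped, and saracatinib lay between VAV1 and the empty vector. ITGA6 fell by 1.2 ± 0.05 with VAV1 (adjusted p = 2.29e-10) and rose by 0.54 ± 0.05 with saracatinib (adjusted p = 1.19e-06). It was 11.74, 11.79 and 11.81 with RAC1 P29S, against 12.53, 12.57 and 12.60 with the empty vector, lower in every library by 0.79 ± 0.04 (adjusted p = 4.67e-07). ITGB4, the hemidesmosome beta chain that pairs with ITGA6, rose where ITGA6 fell. It averaged 10.29 ± 0.21 with saracatinib, 10.24 ± 0.09 with VAV1 and vehicle and 9.63 ± 0.12 in empty-vector cells (SD, n = 3 each), rising by 0.61 ± 0.10 with VAV1 (adjusted p = 0.000256). With RAC1 P29S it averaged 6.55 ± 0.32, against 5.18 ± 0.39 untreated (SD, n = 3 each), a rise of 1.38 ± 0.25 (adjusted p = 0.00201).

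ITGA3, the leading laminin-binding alpha chain, averaged 13.67 ± 0.11 with saracatinib, 13.17 ± 0.08 with VAV1 and vehicle and 13.14 ± 0.09 in empty-vector cells (SD, n = 3 each). It rose by 0.50 ± 0.06 with saracatinib (adjusted p = 3.3e-05) and by 0.31 ± 0.05 with RAC1 P29S (adjusted p = 0.00151), while its VAV1 difference was 0.03 ± 0.06 (adjusted p = 0.682). ITGA7, the laminin-binding chain of muscle, fell by 0.98 ± 0.15 with VAV1 and rose by 0.78 ± 0.15 with saracatinib, at no more than 197 normalized counts in any group.

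The remaining alpha chains showed smaller differences. ITGA4, a fibronectin and VCAM1 receptor chain of leukocytes and neural crest derivatives, fell by 0.54 ± 0.08 with VAV1 and differed by -0.05 ± 0.08 with saracatinib (adjusted p = 0.671). ITGA5, the alpha chain of the classical fibronectin receptor, fell by 0.34 ± 0.05 with VAV1 and rose by 0.19 ± 0.05 with saracatinib. Neither ITGA4 (0.06 ± 0.07) nor ITGA5 (0.00 ± 0.07) passed with RAC1 P29S. ITGAE, the chain of intraepithelial lymphocytes, passed in none of the comparisons between 2 groups. The leukocyte beta chains were scarce: ITGB2 averaged at most 51.8 and ITGB7 at most 88.5 normalized counts in any group. ITGB2 fell by 1.66 ± 0.38 with saracatinib (adjusted p = 0.00352) and rose by 0.98 ± 0.33 with RAC1 P29S (adjusted p = 0.0443), with 16.4 and 51.8 normalized counts in VAV1 cells with saracatinib and with vehicle. Opposite-strand exons of ZNF740 cover 42.1% of ITGB7, so its reads are uncertain where strand was not used.

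**Figure D2:**
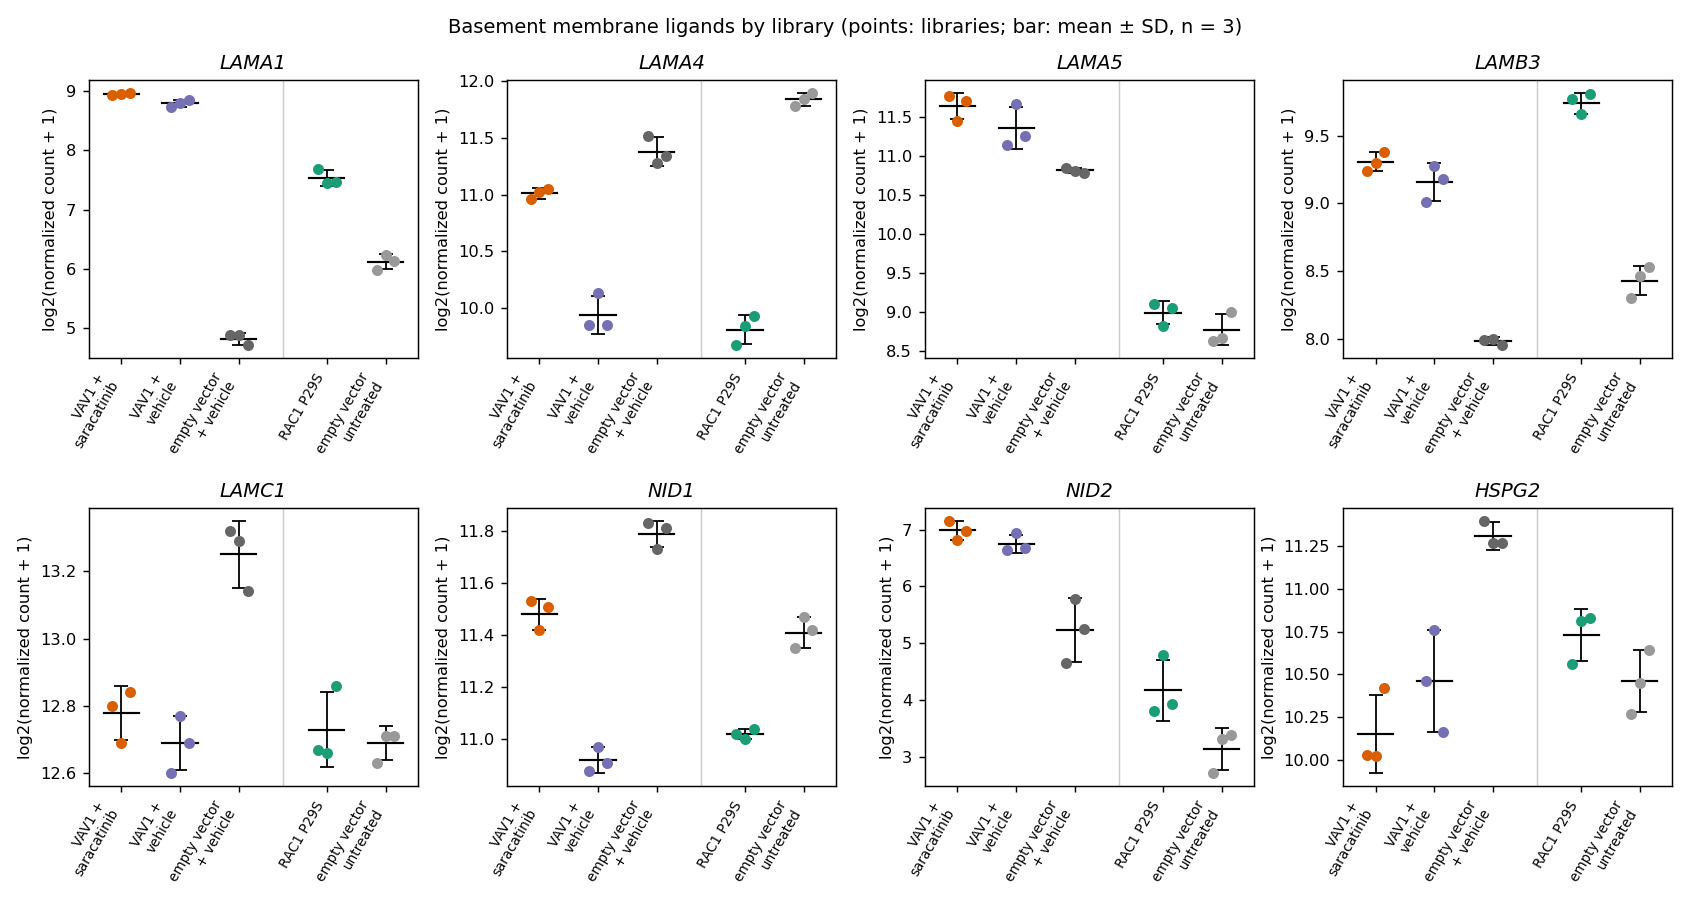
Log2(normalized count + 1) of 8 basement membrane ligands in every library, in the same groups from left to right; points are libraries and bars the mean ± SD of 3. LAMA1 lies at 8.72 to 8.97 in all 6 VAV1 libraries with or without saracatinib and at 4.71 to 4.88 in empty-vector cells with vehicle, while LAMA4 is lowest with VAV1 and vehicle and with RAC1 P29S; the vertical scale differs between panels.

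Among the laminin alpha chains, LAMA1 (chr18:6941744-7117814), the alpha chain of the embryonic laminin-111, had the largest increase. Its log2 values were 8.93, 8.94 and 8.97 with saracatinib, 8.72, 8.80 and 8.85 with VAV1 and vehicle, and 4.88, 4.88 and 4.71 in empty-vector cells. Both VAV1 groups lay far above the empty vector. LAMA1 was 15.6-fold higher with VAV1 (log2 difference 3.97 ± 0.11, adjusted p = 6.69e-12), and its difference with saracatinib was 0.16 ± 0.11 (adjusted p = 0.282). RAC1 P29S cells held 7.69, 7.44 and 7.47, against 5.98, 6.23 and 6.14 with the empty vector. The groups were separate, by 2.67-fold (log2 difference 1.42 ± 0.15, adjusted p = 4.38e-05). The increase was larger with VAV1 than with RAC1 P29S by 2.55 ± 0.16 (adjusted p = 1.65e-08). The experiments differ in treatment and were scaled separately, so the transgene and the experiment cannot be told apart in that difference. An antisense transcript that was not analysed here covers 10.3% of the exonic bases of LAMA1.

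LAMA4 (chr6:112108760-112254939), the alpha chain of laminins around vessels and mesenchymal cells, went the other way. It measured 10.96, 11.02 and 11.05 with saracatinib, 9.85, 10.13 and 9.85 with VAV1 and vehicle, and 11.52, 11.28 and 11.34 in empty-vector cells. The 3 groups did not overlap, with VAV1 lowest and the empty vector highest. LAMA4 fell by 1.44 ± 0.08 with VAV1 (adjusted p = 1.38e-08), rose by 1.07 ± 0.08 with saracatinib (adjusted p = 4.81e-07) and stayed at -0.37 ± 0.08 with saracatinib against the empty vector (adjusted p = 0.00282). With RAC1 P29S it was 9.67, 9.84 and 9.93, against 11.78, 11.84 and 11.90 with the empty vector. This was the largest decrease among the ligands in that comparison, 4.08-fold (log2 difference -2.03 ± 0.07, adjusted p = 1.92e-08).

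LAMA5, the alpha chain of the widespread laminins built on LAMC1, averaged 11.65 ± 0.17 with saracatinib, 11.36 ± 0.27 with VAV1 and vehicle and 10.82 ± 0.03 in empty-vector cells (SD, n = 3 each). It rose by 0.54 ± 0.12 with VAV1 (adjusted p = 0.00388), and neither saracatinib (0.30 ± 0.12, adjusted p = 0.0773) nor RAC1 P29S (0.22 ± 0.12, adjusted p = 0.186) passed. LAMA2, the laminin chain of muscle, passed in no comparison. The abundant shared chains fell with VAV1: LAMB1 fell by 0.42 ± 0.05, LAMC1 by 0.56 ± 0.06 and LAMB2 by 0.67 ± 0.08. With RAC1 P29S LAMB1 fell by 0.23 ± 0.04 (adjusted p = 0.00186), while LAMC1 stood at 12.73 ± 0.11 against 12.69 ± 0.05 untreated (SD, n = 3 each; adjusted p = 0.575).

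LAMA3 and LAMB3 are chains of laminin-332, the ligand of epithelial hemidesmosomes. LAMB3 measured 9.24, 9.30 and 9.38 with saracatinib, 9.01, 9.28 and 9.18 with VAV1 and vehicle, and 7.99, 8.0 and 7.95 in empty-vector cells. Both VAV1 groups lay above the empty vector and overlapped each other. LAMB3 rose by 1.18 ± 0.09 with VAV1 (adjusted p = 1.3e-07), and saracatinib gave 0.15 ± 0.09 (adjusted p = 0.196). It was 9.77, 9.66 and 9.81 with RAC1 P29S, against 8.30, 8.46 and 8.53 with the empty vector, higher in every library by 1.31 ± 0.09 (adjusted p = 1.63e-06). LAMA3, the alpha chain, averaged 6.37 ± 0.23 with saracatinib, 5.39 ± 0.74 with VAV1 and vehicle and 5.16 ± 0.06 in empty-vector cells (SD, n = 3 each). Its VAV1 difference of 0.23 ± 0.30 did not pass (adjusted p = 0.576), it rose by 0.98 ± 0.30 with saracatinib (adjusted p = 0.0216), and it fell by 0.89 ± 0.25 with RAC1 P29S (adjusted p = 0.0201).

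The sequences just before the start sites of 4 of these genes are shown because LAMB3 and LAMA3 encode chains of 1 trimer yet were called differently, while LAMA4 and ITGB8 fell with both transgenes. They are 250 bases of RefSeq promoter sequence on GRCh38.p14, read 5′ to 3′ on the strand of the gene, with matches to the AP-1 motif TGANTCA in capitals. LAMB3 is at chr1:209651375-209651624 on the minus strand (1 of 3 listed starts), LAMA3 at chr18:23872770-23873019 on the plus strand (the only listed start), LAMA4 at chr6:112254568-112254817 on the minus strand and ITGB8 at chr7:20330650-20330899 on the plus strand.
LAMB3: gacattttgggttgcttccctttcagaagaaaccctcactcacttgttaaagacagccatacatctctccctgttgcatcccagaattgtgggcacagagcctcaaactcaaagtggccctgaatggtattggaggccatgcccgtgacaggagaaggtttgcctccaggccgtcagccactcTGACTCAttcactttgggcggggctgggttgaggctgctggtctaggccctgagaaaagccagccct
LAMA3: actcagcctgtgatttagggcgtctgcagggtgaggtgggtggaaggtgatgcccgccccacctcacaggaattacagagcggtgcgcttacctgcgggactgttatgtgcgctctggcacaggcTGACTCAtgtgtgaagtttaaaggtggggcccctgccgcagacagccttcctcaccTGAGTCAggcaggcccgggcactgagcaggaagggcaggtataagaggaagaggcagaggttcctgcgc
LAMA4: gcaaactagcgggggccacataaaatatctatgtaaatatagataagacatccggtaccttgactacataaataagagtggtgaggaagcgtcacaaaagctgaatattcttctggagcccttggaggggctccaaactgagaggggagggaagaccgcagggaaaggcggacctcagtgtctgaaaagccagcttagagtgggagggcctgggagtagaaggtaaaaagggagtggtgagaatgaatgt
ITGB8: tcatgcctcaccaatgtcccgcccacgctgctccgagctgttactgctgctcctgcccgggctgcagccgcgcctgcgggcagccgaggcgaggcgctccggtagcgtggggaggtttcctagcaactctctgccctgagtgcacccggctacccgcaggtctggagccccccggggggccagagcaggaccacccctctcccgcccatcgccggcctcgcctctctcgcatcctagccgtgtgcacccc
The LAMB3 window has 1 AP-1 match, at -67 from the start, and the LAMA3 window has 2, at -125 and -69, while the LAMA4 and ITGB8 windows have none. The LAMB3 window shown was picked for its AP-1 match, and the windows of its other listed starts have none. The AP-1 contrast of LAMB3 with LAMA4 and ITGB8 was therefore set by that choice. Of the 37 genes, 27 had RefSeq windows, 35 windows in all, from 250 bases before to 50 bases after a start. AP-1 letters, on both strands, were in 8.57% of these windows, in LAMB3, LAMA3 and ITGA5, against 7.71% of 35116 promoters. The TEAD motif GGAATG was in 11.4% of them, against 14% of all promoters, and the GC box GGGCGG in 62.9%, against 45.0%. A loose SRF-type pattern, paired C bases and paired G bases around any others, was in 88.6%, against 78.2%. A match is a run of letters and not a shown binding site.

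The linkers and proteoglycans of the basement membrane divided. NID2 measured 7.16, 6.82 and 6.97 with saracatinib, 6.65, 6.94 and 6.67 with VAV1 and vehicle, and 4.66, 5.78 and 5.25 in empty-vector cells. All VAV1 libraries lay above those of the empty vector, and NID2 rose by 1.52 ± 0.24 with VAV1 (adjusted p = 0.000199), with a saracatinib difference of 0.23 ± 0.24 (adjusted p = 0.487). In the untreated experiment it was 3.80, 4.79 and 3.93 with RAC1 P29S, against 2.71, 3.31 and 3.39 with the empty vector. These libraries did not overlap, and the log2 difference of 1.03 ± 0.41 did not pass (adjusted p = 0.0814), though it did in a fit of all 15 libraries (adjusted p = 0.0137). Opposite-strand exons of RTRAF, listed under its older symbol C14orf166, cover 30.0% of the exonic bases of NID2, and C14orf166 itself rose by 0.22 ± 0.06 with VAV1. C14orf166 rose by 0.36 ± 0.06 in VAV1 cells with saracatinib against the empty vector (adjusted p = 0.000374). Its difference with RAC1 P29S, 0.06 ± 0.05, did not pass (adjusted p = 0.41). NID1, the other nidogen, fell by 0.87 ± 0.05 with VAV1, rose by 0.57 ± 0.05 with saracatinib and fell by 0.39 ± 0.05 with RAC1 P29S.

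HSPG2, the heparan sulfate proteoglycan perlecan, measured 10.03, 10.02 and 10.42 with saracatinib, 10.46, 10.76 and 10.16 with VAV1 and vehicle, and 11.40, 11.27 and 11.27 in empty-vector cells. Both VAV1 groups were below the empty vector and overlapped each other. It fell by 0.85 ± 0.14 with VAV1 (adjusted p = 0.000741), and opposite-strand exons of LDLRAD2 cover 11.7% of its exonic bases. Its saracatinib difference of -0.30 ± 0.14 did not pass (adjusted p = 0.126), except without VAV1 vehicle replicate 3 (adjusted p = 0.0174) or saracatinib replicate 3 (adjusted p = 0.0265). With RAC1 P29S it was 10.56, 10.81 and 10.83, against 10.27, 10.45 and 10.64 with the empty vector, which overlapped (log2 difference 0.28 ± 0.10, adjusted p = 0.0641). That difference passed without RAC1 P29S replicate 1 (adjusted p = 0.0274) or untreated empty-vector replicate 3 (adjusted p = 0.0173).

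AGRN, agrin, which ties laminins to dystroglycan, was called in opposite directions in the VAV1 and RAC1 P29S comparisons. It was the only such gene of the 34 tested in both experiments, where 150 of all 13810 genes were. It averaged 11.90 ± 0.15 with saracatinib, 11.38 ± 0.11 with VAV1 and vehicle and 11.66 ± 0.14 in empty-vector cells, and 11.72 ± 0.12 with RAC1 P29S against 11.02 ± 0.09 untreated (SD, n = 3 each). AGRN fell by 0.29 ± 0.09 with VAV1 (adjusted p = 0.0174) and rose by 0.70 ± 0.07 with RAC1 P29S (adjusted p = 3.93e-05). DAG1, the dystroglycan that binds laminin and agrin through its sugars, fell by 0.36 ± 0.04 with VAV1 and by 0.43 ± 0.05 with RAC1 P29S, and rose by 0.28 ± 0.04 with saracatinib.

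**Figure D3:**
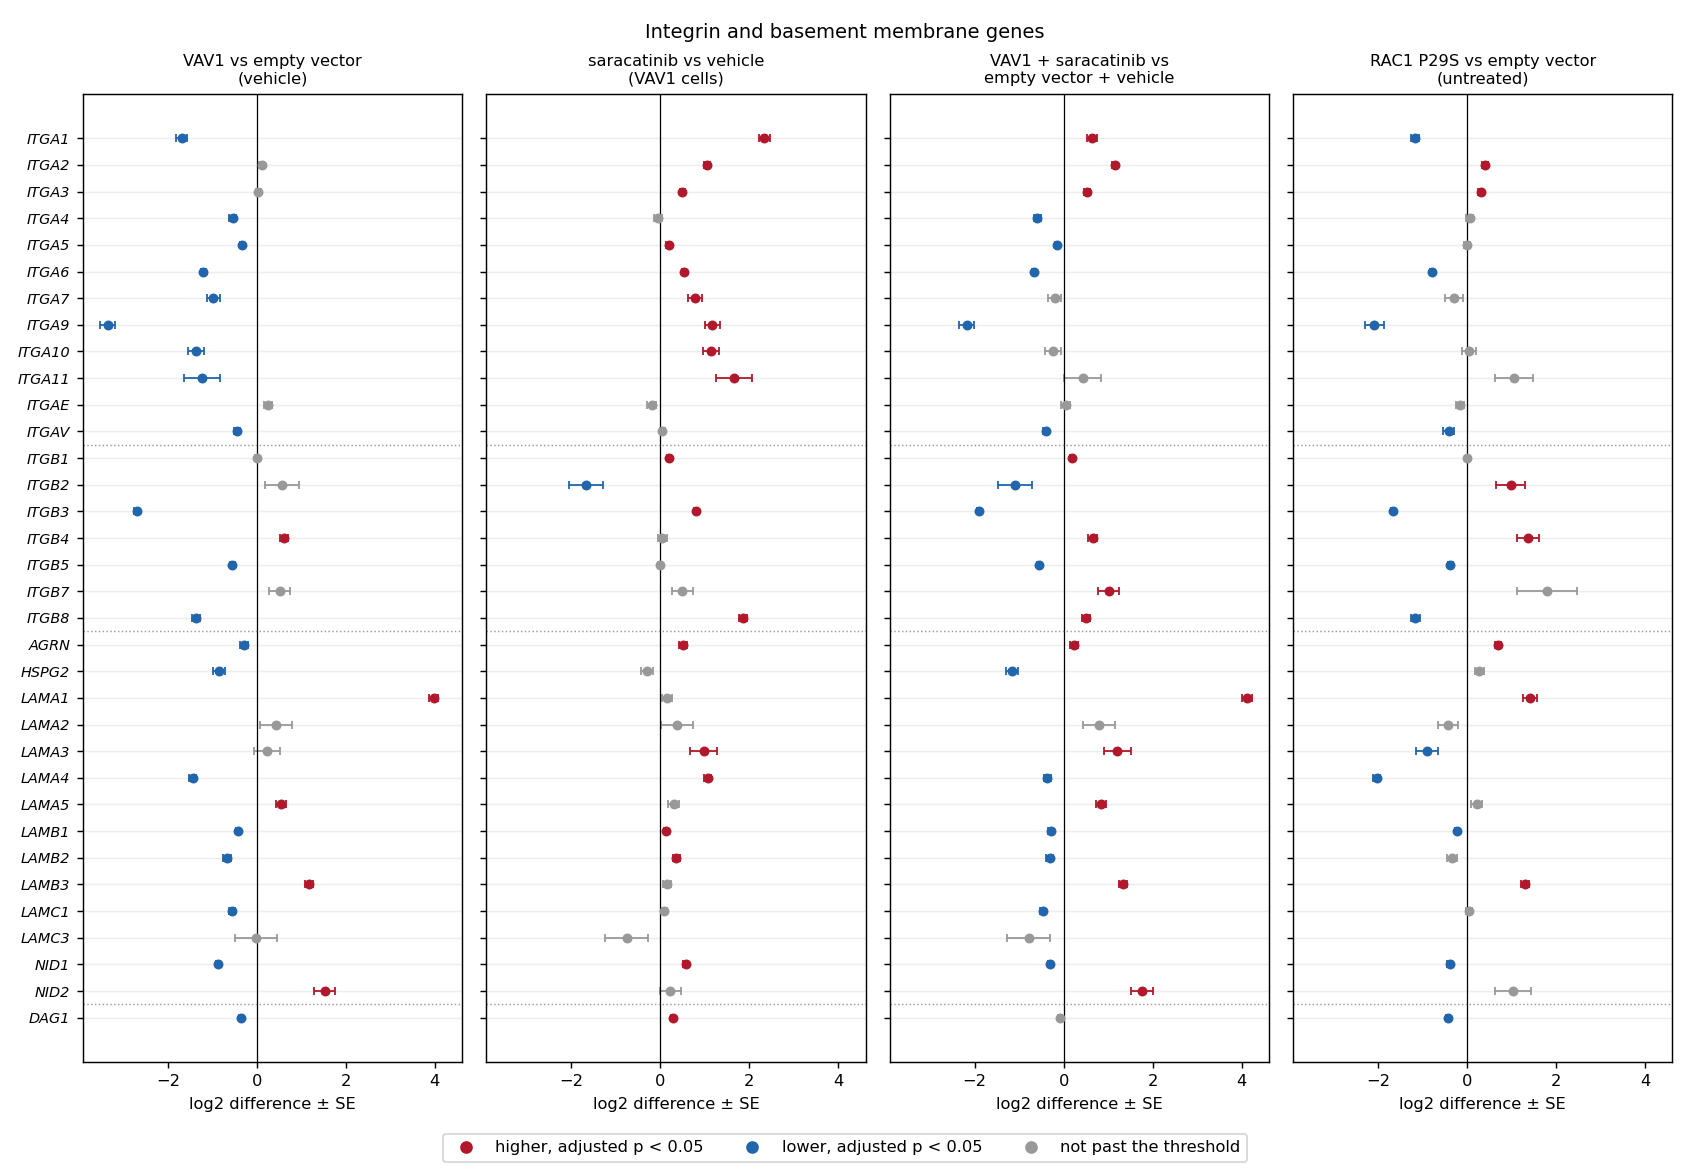
Log2 difference ± SE of the tested genes reported here in 4 comparisons, with alpha chains, beta chains, basement membrane ligands and DAG1 from top to bottom; red points passed as higher, blue as lower and grey points did not pass. With VAV1 the alpha chains lie at or left of 0.25, and with saracatinib 9 of 12 passed as higher.

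With saracatinib, integrin transcripts of VAV1 cells rose broadly. Of the 12 alpha chains 9 rose and none fell, of the 7 beta chains 3 rose (ITGB1, ITGB3 and ITGB8) and ITGB2 fell, and of the 15 ligands 6 rose and 1 fell. Over all 35 genes 19 rose and 2 fell, where 37.3% of all genes were called (18.3% higher and 19.1% lower), with a median log2 difference of 0.30 beside -0.01 over all genes. Changes of more than 2-fold were called for 8 of the 35 (ITGA1, ITGA2, ITGA9, ITGA10, ITGA11, ITGB8 and LAMA4 higher, ITGB2 lower), against 5.21% of all genes. The alpha chains ITGA4, ITGAE and ITGAV, the beta chains ITGB4, ITGB5 and ITGB7, and 8 ligands, among them LAMA1, LAMB3, LAMC1 and NID2, did not pass. Without VAV1 vehicle replicate 1 or 2, or saracatinib replicate 1, only 1 gene fell. No group shows what saracatinib does without VAV1, so an action on the VAV1 state and an action on these cells in general cannot be told apart.

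Set against empty-vector cells with vehicle, VAV1 cells with saracatinib had 14 genes higher and 14 lower of 35, where 43.4% of all genes were called (22.4% higher and 21.0% lower). Changes of more than 2-fold were called for 10 of them, against 8.78% of all genes. Some genes lay above the empty vector: LAMA1 by 4.12 ± 0.11, NID2 by 1.76 ± 0.24, LAMB3 by 1.33 ± 0.09, LAMA3 by 1.21 ± 0.30, ITGA2 by 1.15 ± 0.06 and ITGA1 by 0.64 ± 0.12. Others lay below it: ITGA9 at -2.18 ± 0.17, ITGB3 at -1.90 ± 0.05, HSPG2 at -1.16 ± 0.14 and ITGA6 at -0.66 ± 0.05. For ITGA7 (-0.20 ± 0.15), ITGA10 (-0.23 ± 0.18), ITGA11 (0.43 ± 0.41) and DAG1 (-0.08 ± 0.04) the difference from the empty vector did not pass. This comparison shares its libraries with the other 2 of that experiment, so it adds no cultures of its own.

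RAC1 P29S raised 8 and lowered 12 of the 34 genes tested, where 31.1% of all 14036 genes were called (15.6% higher and 15.5% lower). The median log2 difference was 0.00 for the 34 and for all genes. Of the 12 alpha chains 4 fell (ITGA1, ITGA6, ITGA9 and ITGAV) and 2 rose (ITGA2 and ITGA3). Of the 7 beta chains ITGB3, ITGB5 and ITGB8 fell and ITGB2 and ITGB4 rose, and of the 14 ligands LAMA3, LAMA4, LAMB1 and NID1 fell and 4 rose, among them AGRN, LAMA1 and LAMB3. Changes of more than 2-fold were called for 9 of the 34, against 7.53% of all genes.

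The VAV1 and RAC1 P29S comparisons share no library. Of the 34 genes, 4 rose with both, among them ITGB4, LAMA1 and LAMB3, and 11 fell with both (ITGA1, ITGA6, ITGA9, ITGAV, ITGB3, ITGB5, ITGB8, LAMA4, LAMB1, NID1 and DAG1). These 15 are 57.7% of the 26 called with VAV1 and 75.0% of the 20 called with RAC1 P29S. Over all 13810 genes tested in both, the matching shares were 47.8% and 67.4%. A further 10 genes were called with VAV1 alone, among them HSPG2, ITGA10, LAMC1 and NID2, and 4 with RAC1 P29S alone (ITGA2, ITGA3, ITGB2 and LAMA3). A call with 1 transgene alone does not by itself show a difference between the transgenes. Of all 13810 genes, 1505 rose and 1412 fell with both, 3037 were called with VAV1 alone and 1263 with RAC1 P29S alone.

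**Figure D4:**
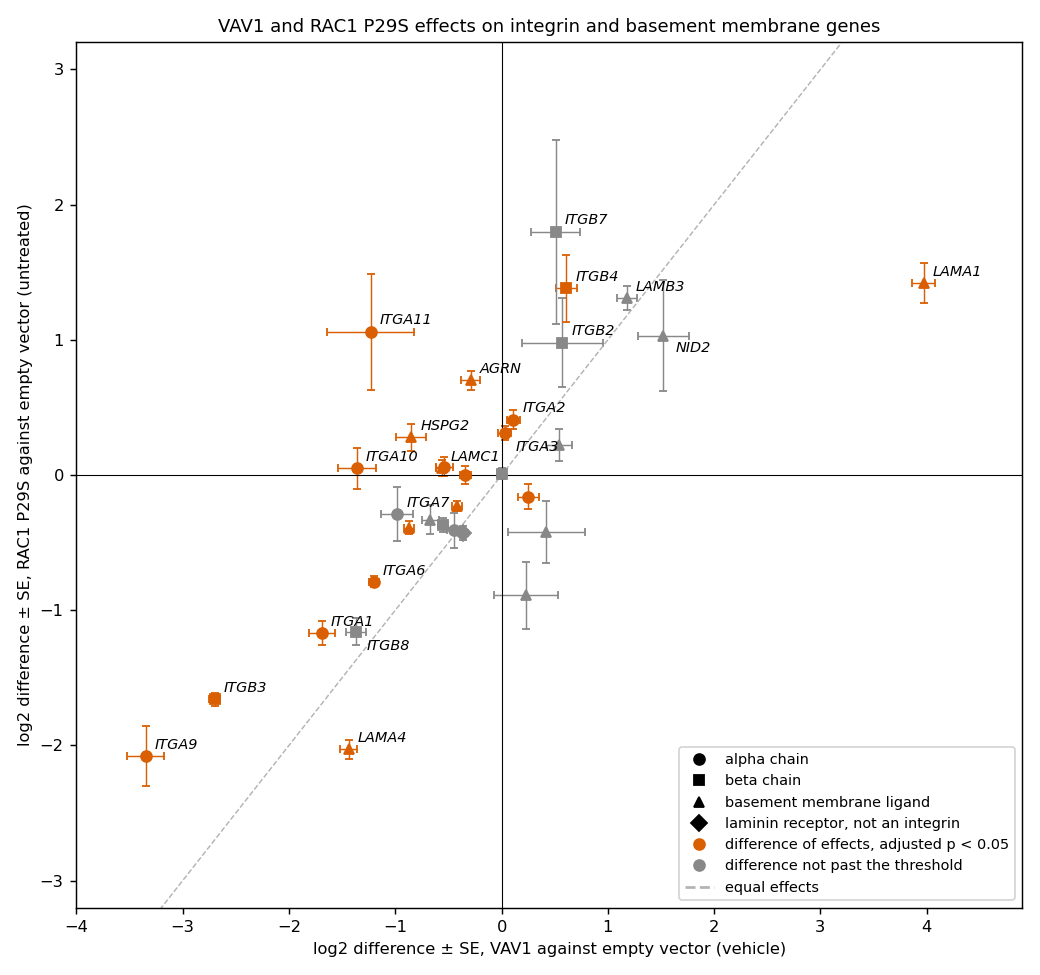
Log2 difference ± SE of the genes reported here with VAV1 against the empty vector (horizontal, vehicle) and with RAC1 P29S against the empty vector (vertical, untreated), with the line of equal effects dashed and orange points for a difference between the effects past the threshold. LAMA1 lies far right of the line at 3.97 and 1.42, ITGB3 and ITGA9 lie above the line in the lower left, and LAMA4 lies below it.

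The difference between the effects was tested over all 15 libraries. It passed for 19 of the 34 genes, lower with VAV1 than with RAC1 P29S for 16 and higher for 3, where 15.8% of all genes were called (8.14% higher and 7.70% lower). Among the alpha chains it was lower for 9 of 12. It reached -1.41 ± 0.24 for ITGA10, -1.27 ± 0.29 for ITGA9, -1.05 ± 0.06 for ITGB3 and -0.41 ± 0.06 for ITGA6. Among ligands it was -1.13 ± 0.20 for HSPG2, -0.99 ± 0.12 for AGRN and -0.61 ± 0.09 for LAMC1, and 0.59 ± 0.12 for LAMA4. For ITGB8 (-0.21 ± 0.14, adjusted p = 0.314) and LAMB3 (-0.14 ± 0.12, adjusted p = 0.487) it did not pass. The 16 lower calls became 10 without empty-vector vehicle replicate 3. With upper-quartile scaling the calls over all genes split into 846 higher and 1259 lower, in place of 1124 and 1064, and those among the 34 into 2 and 16. Over the alternatives other than leaving out a library, the lower calls among the 34 ranged from 11 to 16. The experiments differ in treatment and were scaled separately, so the transgene and the experiment cannot be told apart in this difference.

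The empty-vector cells of the experiments were not alike for every gene. ITGB4 averaged 792 normalized counts in empty-vector cells with vehicle and 36.0 in untreated empty-vector cells, a ratio of 22.0. LAMA5 averaged 1801 with vehicle and 438 untreated, NID2 38.4 and 8.0, and LAMA1 27.4 and 68.7. ITGB1, ITGA5 and ITGA6 differed by ratios of 0.916 to 1.07. These levels come from tables normalized separately and were not tested.

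The wider adhesion machinery was read from lists of related genes, beside the 43.7% of all genes called with VAV1, 37.3% with saracatinib and 31.1% with RAC1 P29S. Of 49 tested focal adhesion adaptors, 18 rose and 13 fell with VAV1, 4 rose and 14 fell with saracatinib, and 19 rose and 8 fell with RAC1 P29S. The genes called were 63.3% of the list with VAV1, 36.7% with saracatinib, near the share over all genes, and 55.1% with RAC1 P29S. The median differences were 0.03, -0.18 and 0.10, beside 0.02, -0.01 and 0.00 over all genes. Vinculin (VCL), which links talin to actin, rose by 0.66 ± 0.05 with VAV1 and by 1.25 ± 0.05 with RAC1 P29S. KANK1, a talin-binding protein at the rim of adhesions, fell by 0.90 ± 0.06 with VAV1 and rose by 0.87 ± 0.06 with saracatinib.

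Among 31 tested other basement membrane genes, 6 rose and 15 fell with VAV1 (median -0.57), 12 rose and 4 fell with saracatinib (median 0.32), and 10 of 28 rose and 14 fell with RAC1 P29S (median -0.42), beside medians of 0.02, -0.01 and 0.00 over all genes. The shares called were 67.7% with VAV1, 51.6% with saracatinib and 85.7% with RAC1 P29S, beside 43.7%, 37.3% and 31.1% of all genes. The type IV collagen chain COL4A1, the partner network of laminin, averaged 11.26 ± 0.07 with saracatinib, 11.55 ± 0.06 with VAV1 and vehicle and 12.93 ± 0.07 in empty-vector cells (SD, n = 3 each). It fell by 1.37 ± 0.05 with VAV1 and by 0.86 ± 0.05 with RAC1 P29S. SPARC, a collagen-binding matricellular protein, fell by 1.11 ± 0.03 with VAV1, rose by 0.96 ± 0.03 with saracatinib and fell by 0.81 ± 0.04 with RAC1 P29S. SMOC1, a SPARC-related protein, rose by 2.57 ± 0.11 with saracatinib.

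Among 23 tested non-integrin laminin receptors and tetraspanins, 8 rose and 7 fell with VAV1, 10 rose and 5 fell with saracatinib, and 11 rose and 8 fell with RAC1 P29S. These were 65.2%, 65.2% and 82.6% of the list, beside 43.7%, 37.3% and 31.1% of all genes, and the median differences of -0.09, 0.12 and 0.11 stood beside 0.02, -0.01 and 0.00. Caveolin-1 (CAV1), the coat protein of caveolae, rose by 2.08 ± 0.06 with VAV1 and by 1.87 ± 0.05 with RAC1 P29S and fell by 1.43 ± 0.06 with saracatinib. Syndecan-3 (SDC3), a heparan sulfate proteoglycan, fell by 2.50 ± 0.07 with VAV1, fell by 2.11 ± 0.05 with RAC1 P29S and rose by 1.75 ± 0.07 with saracatinib. CSPG4, a melanoma proteoglycan that is also in the melanocyte marker list, fell by 1.29 ± 0.07 with VAV1 and by 0.83 ± 0.04 with RAC1 P29S. Of 30 tested genes of dystroglycan glycosylation and the dystrophin complex, 5 rose and 7 fell with VAV1, 8 rose and 2 fell with saracatinib, and 2 of 28 rose and 9 fell with RAC1 P29S. The shares called, 40.0% with VAV1 and 33.3% with saracatinib, lay near the 43.7% and 37.3% over all genes, and with RAC1 P29S 39.3% were called, beside 31.1%. The median differences were 0.03, 0.01 and -0.17. The syntrophin SNTB1, an adaptor of that complex, fell by 1.92 ± 0.09 with VAV1, fell by 1.64 ± 0.09 with RAC1 P29S and rose by 1.82 ± 0.09 with saracatinib.

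Of 30 tested ligands of the interstitial matrix, 11 rose and 10 fell with VAV1, 12 rose and 9 fell with saracatinib, and 14 of 29 rose and 8 fell with RAC1 P29S. These were 70.0%, 70.0% and 75.9% of the list, beside 43.7%, 37.3% and 31.1% of all genes, with median differences of 0.03, 0.05 and 0.27. Tenascin-C (TNC), a ligand of ITGA9 and of ITGAV with ITGB3, averaged 12.11 ± 0.05 with saracatinib, 11.36 ± 0.15 with VAV1 and vehicle and 14.08 ± 0.03 in empty-vector cells (SD, n = 3 each). TNC fell by 2.72 ± 0.06 with VAV1 and by 1.44 ± 0.06 with RAC1 P29S. CYR61, a matricellular ligand of ITGAV with ITGB3, rose by 1.60 ± 0.05 with VAV1 and by 1.79 ± 0.07 with RAC1 P29S and fell by 1.91 ± 0.05 with saracatinib. Of 8 tested immunoglobulin-family and leukocyte integrin ligands, 2 rose and 2 fell with VAV1, 1 rose and 2 fell with saracatinib, and 3 rose and 2 fell with RAC1 P29S. The 4 of 8 called with VAV1 and 3 of 8 (37.5%) with saracatinib lay near the 43.7% and 37.3% of all genes, and with RAC1 P29S 62.5% were called, beside 31.1%. ALCAM, an adhesion molecule of that family, rose by 2.38 ± 0.06 with VAV1 and by 1.84 ± 0.10 with RAC1 P29S and fell by 0.78 ± 0.06 with saracatinib. SEMA7A, a membrane semaphorin that binds integrins with ITGB1, rose by 0.98 ± 0.06 with VAV1 and by 1.2 ± 0.07 with RAC1 P29S and fell by 0.70 ± 0.06 with saracatinib.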

How the data were processed

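The authors deposited, for each of the 15 libraries, log2 values of a normalized count plus 1 per gene symbol, read here from the values of the tables. Per the submitters' processing notes, kallisto, DESeq2 and the GRCh38 build were used, and versions, strand setting and annotation are not given in the sources used here. The tables hold 16768 symbols for the vehicle and saracatinib experiment and 16295 for the untreated one. The read depth is therefore unknown, and no counting interval is given. The values sum to a similar normalized total in every library, so a difference is relative to the other genes, and log2 differences of low genes are understated by the added 1.

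From these values, limma 3.58.1 in R 4.3.3 fitted 1 mean per group, with a mean-variance trend and robust empirical Bayes, two-sided. Benjamini-Hochberg adjustment ran over all genes with at least 10 normalized counts in at least 3 libraries (14410, 14036 and, for the difference of effects, 13810). The 9 and the 6 libraries had separate fits, and the difference of effects used all 15. Samples were grouped by title. Replicate numbers were not used to pair libraries in the main fits. Residuals of same-numbered libraries in different groups correlated at -0.0547 to 0.0125, and those of differently numbered libraries at -0.0315 to 0.0491. No 2 libraries held identical values.

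The genes and lists were chosen with earlier results of these data known. Some genes enter the counts and are not reported here by name. Per-library values are otherwise given for genes called in a comparison of 2 groups with at least a 2-fold change (an absolute log2 difference of 1) and a mean of at least 100 normalized counts in the higher group, and partner chains of these are given beside them. From each list the members named are among the 3 with the smallest adjusted p per comparison. Marker lists covered melanocyte-lineage, haematopoietic, fibroblast, endothelial, epithelial and platelet cells. Coordinates and overlaps are from GENCODE release 29 on GRCh38, and promoter windows from RefSeq on GRCh38.p14. Alternatives were other scalings, filters of 0 and 50 normalized counts, pseudocounts of 4 and 16, other libraries in the fit, a replicate block, plain empirical Bayes and leaving out each library. The fits were tested on simulated data with independent noise per gene and 2-fold shifts, a setting that does not cover the smaller differences called here.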

Additional observations from a re-analysis of the deposited data

Results flagged for a closer look

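Of the 34 integrin and basement membrane genes tested in both experiments, 19 passed for a difference between the VAV1 and RAC1 P29S effects. The fit used all 15 libraries, and 15.8% of all 13810 genes were called in it. Differences are on the log2 scale, as VAV1 effect minus RAC1 P29S effect. The transgene and the experiment cannot be told apart in them. For the alpha chains the difference was -2.29 for ITGA11, -1.41 for ITGA10, -1.27 for ITGA9, -0.60 for ITGA4, -0.53 for ITGA1, -0.41 for ITGA6, -0.33 for ITGA5, -0.31 for ITGA2, -0.27 for ITGA3 and 0.41 for ITGAE. For the beta chains it was -1.05 for ITGB3 and -0.77 for ITGB4. For the ligands it was -1.13 for HSPG2, -0.99 for AGRN, -0.61 for LAMC1, -0.48 for NID1, -0.20 for LAMB1, 0.59 for LAMA4 and 2.55 for LAMA1. ITGAE, which passed in neither comparison alone, passed here with 0.25 ± 0.10 for VAV1 and -0.16 ± 0.09 for RAC1 P29S. ITGA11 rests on at most 71.5 normalized counts in any group. ITGB4 differed 22.0-fold between the empty-vector cells of the experiments. The calls for ITGA1 and ITGA2 were lost when single libraries were left out, as given with the dependence on processing. Other calls near the threshold were not followed singly through the alternatives. These include ITGAE (adjusted p = 0.0404), ITGA3 (0.0415), LAMB1 (0.0436) and ITGB4 (0.046) in this limma fit. Without empty-vector vehicle replicate 3 the lower calls fell from 16 to 10, so calls besides those of ITGA1 and ITGA2 were lost too.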

How the results depend on the processing

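Of the counts of called genes, 2 moved by over 1.5 times under an alternative. The count of genes lower with saracatinib than with vehicle was 2, became 1 with the replicate block, and was 1 to 2 when each library was left out. The count lower in the difference of effects was 16 and ranged from 10 to 16 when each library was left out. It was 10 without empty-vector vehicle replicate 3, and 11 to 16 over the other alternatives. The cause was not tested. The other counts changed by less: 18 to 20 genes lower with VAV1, 17 to 21 higher with saracatinib, and 10 to 13 lower with RAC1 P29S over all alternatives. No log2 difference of a gene given in full reversed where it had been called. Of the single-gene values, 592 kept their side of the threshold when a library was left out, 21 lost it and 5 gained it. Under the other alternatives 628 kept it, 4 lost it and 3 gained it. These values are only of the genes given in full, which were chosen for a called change of at least 2-fold. Weaker calls were not followed singly, among them AGRN with VAV1, LAMB1 with saracatinib, and ITGAV and ITGB2 with RAC1 P29S. Under the replicate block the difference-of-effects call of ITGA2 was lost (adjusted p = 0.0556), and HSPG2 passed with RAC1 P29S (adjusted p = 0.0145), as it did with upper-quartile scaling (adjusted p = 0.0499). The difference-of-effects call of ITGA1 was lost without several single libraries, with adjusted p up to 0.093, and with plain empirical Bayes (0.0802), as was that of ITGA2, with adjusted p up to 0.0828 and 0.0582. A fit of only the groups compared was not run for the difference of effects. Read depth is unknown, so whether genes near the filter, such as ITGA11, ITGB2 and ITGB7, are limited by depth was not tested.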
